A study of Mus musculus with 60 samples.

Results

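H3K27me3 places found in sedentary mice by simultaneous isolation were compared with those found by separate isolation. The members were the 46560 H3K27me3 peaks of 3 sedentary lists, out of 256375 peaks in the 12 lists of the series. They were 10279 peaks of the simultaneous list (SIT), 14491 of the left separate list and 21790 of the right separate list. Overlapping left and right peaks were merged into 22182 separate regions, and these were set against the SIT peaks by overlap, annotation, width, distance to a start site and assigned gene symbol. The rule takes every peak of the 3 lists and uses no measured value.

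The peaks came from CUT&RUN, in which an antibody directs a nuclease to cut out the DNA around a histone mark, on hippocampal nuclei of male Emx1-NuTRAP mice. In these mice Cre under Emx1 control switches on a nuclear tag and a ribosome tag, mainly in excitatory neurons and also in neural progenitors, so that nuclei are captured by INTACT and ribosome-bound RNA by TRAP. The groups compared were sedentary, in cages without a running wheel, from postnatal day 21 to 41 and differed in the isolation. Lists from exercised mice of the same line, which had a running wheel over the same days, and sedentary H4K8ac lists are used further on for comparison. In SIT (4 samples) both hippocampi of a mouse were homogenised together with cycloheximide, and nuclei and RNA were taken from the same tube. In separate isolation (3 left and 3 right samples) the nuclei came from a single hippocampus and the RNA from the opposite one, so the left and right lists came from different mice. The study asked whether SIT gives results comparable to INTACT and TRAP on separate tissue. Each list is a single list for its group. The labels of every sample of a group name that list, and the study's quality filter is not stated to have removed any sedentary H3K27me3 sample. How the samples were put together is not given in the sources used here, and the study names fewer sedentary SIT mice for its own peak comparison than the labels hold. Isolation, hemisphere, mice, sample number and sequencing depth cannot be told apart between these lists. The lists hold no values per sample, so no test between isolations could be made from them, and the 95% Wilson intervals below cover counting error only.

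H3K27me3 is the methyl mark that Polycomb repressive complex 2 writes on histone H3 at lysine 27. It marks silenced developmental genes, often CpG-rich, and is known for broad domains over the Hox clusters and over transcription factor genes of other lineages. In neurons it lies over genes of other cell types and other brain regions. Peaks here were called with SEACR, which keeps contiguous blocks of signal, so a peak's width is the length of such a block. Depth behind the peaks is unknown, since the lists hold no counts or signal.

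Promoter sequences are shown first, because base composition was a feature that differed between places found by both isolations and places found by 1 of them. For each class the widest and the next widest promoter-annotated peaks or regions with a RefSeq promoter (GRCm38.p6) of their own gene inside them are given, from 250 bases before to 50 after the start. Each sequence runs 5′ to 3′ on the gene's strand, and capitals mark CpG pairs. From SIT peaks that overlapped a separate region these are Gm15050 in the HoxA cluster (chr6:52172631-52172930, plus strand, 25 CpG) and Hoxb3os in the HoxB cluster (chr11:96353345-96353644, minus strand, 19 CpG). From SIT peaks with no separate region they are Psg20, a pregnancy-specific glycoprotein gene (chr7:18685943-18686242, minus strand, 0 CpG), and Gm38416 (chr8:117681372-117681671, plus strand, 8 CpG). From separate regions with peaks of both hemispheres and no SIT peak they are Olfr1420, an olfactory receptor gene (chr19:11895773-11896072, plus strand, 2 CpG), and Htr1b, a serotonin receptor gene (chr9:81633783-81634082, minus strand, 11 CpG).
Gm15050: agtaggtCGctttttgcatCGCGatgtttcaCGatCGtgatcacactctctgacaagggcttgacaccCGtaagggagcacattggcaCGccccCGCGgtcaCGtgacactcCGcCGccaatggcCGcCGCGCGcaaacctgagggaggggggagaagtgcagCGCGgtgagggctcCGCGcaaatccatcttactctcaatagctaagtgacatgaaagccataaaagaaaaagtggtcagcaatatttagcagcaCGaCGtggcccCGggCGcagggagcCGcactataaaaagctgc
Hoxb3os: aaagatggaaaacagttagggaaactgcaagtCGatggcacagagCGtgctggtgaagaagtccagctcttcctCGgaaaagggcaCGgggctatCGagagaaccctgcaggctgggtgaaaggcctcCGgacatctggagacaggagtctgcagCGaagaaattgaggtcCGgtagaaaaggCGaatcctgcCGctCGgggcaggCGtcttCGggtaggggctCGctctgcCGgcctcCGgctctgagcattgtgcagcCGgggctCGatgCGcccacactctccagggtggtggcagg
Psg20: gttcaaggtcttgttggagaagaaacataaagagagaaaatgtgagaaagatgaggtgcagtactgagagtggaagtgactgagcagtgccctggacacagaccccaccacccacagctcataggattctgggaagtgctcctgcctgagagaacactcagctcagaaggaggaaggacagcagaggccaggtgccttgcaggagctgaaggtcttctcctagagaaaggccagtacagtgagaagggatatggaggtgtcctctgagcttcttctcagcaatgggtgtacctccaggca
Gm38416: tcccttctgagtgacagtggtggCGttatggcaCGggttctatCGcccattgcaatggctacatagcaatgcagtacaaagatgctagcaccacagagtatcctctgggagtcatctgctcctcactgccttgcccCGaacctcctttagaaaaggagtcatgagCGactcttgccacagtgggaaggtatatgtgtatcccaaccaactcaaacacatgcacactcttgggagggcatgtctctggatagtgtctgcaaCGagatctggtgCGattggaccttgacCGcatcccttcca
Olfr1420: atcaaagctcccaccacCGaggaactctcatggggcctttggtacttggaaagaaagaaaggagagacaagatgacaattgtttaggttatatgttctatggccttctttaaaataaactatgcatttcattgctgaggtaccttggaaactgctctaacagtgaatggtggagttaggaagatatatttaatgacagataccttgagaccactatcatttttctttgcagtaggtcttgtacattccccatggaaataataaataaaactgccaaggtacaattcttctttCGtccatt
Htr1b: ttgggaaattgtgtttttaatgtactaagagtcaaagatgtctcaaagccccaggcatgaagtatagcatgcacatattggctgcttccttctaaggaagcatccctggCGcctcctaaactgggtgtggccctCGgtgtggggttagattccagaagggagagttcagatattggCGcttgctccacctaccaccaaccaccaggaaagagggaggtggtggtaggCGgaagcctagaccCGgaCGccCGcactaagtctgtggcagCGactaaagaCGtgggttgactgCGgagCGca

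Over all 32851 RefSeq promoter windows the median was 7 CpG in 300 bases, and 43.5% held at least 10. The 2130 windows that lay wholly inside both a SIT peak and a separate region had a median of 10 (interquartile range 5 to 19), and 52.2% held at least 10. For the 1034 windows inside separate regions alone the median was 5 (3 to 12) and the share 31.2%, and for the 114 inside SIT peaks alone the median was 5 (2 to 14.8) and the share 28.9%. Windows found by a single isolation were thus poorer in CpG than windows found by both, whichever isolation it was. The window ranges overlapped widely.

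Nearly every SIT peak lay on a place that separate isolation also found, whereas most separate regions had no SIT peak. Of the 10279 SIT peaks, 10017 overlapped a separate region by at least 1 bp, which is 97.5% (95% interval 97.1 to 97.7), and 262 did not. From the other side, 9548 of 22182 separate regions overlapped a SIT peak, which is 43.0% (42.4 to 43.7), leaving 12634. In bases the SIT list covered 72.3 Mb and the separate regions 124 Mb. Both covered 66.9 Mb, which was 92.5% of the SIT bases and 54.0% of the separate bases. Requiring that 50% of an interval be covered gave 94.1% of SIT peaks and 36.0% of separate regions.

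The hemispheres contributed unequally to this. Of separate regions with a peak of both hemispheres, 7530 of 10433 overlapped SIT, or 72.2% (71.3 to 73.0). The share was 17.8% (17.1 to 18.5) for the 10329 regions from the right list alone and 12.7% (11.1 to 14.6) for the 1420 from the left list alone. Set against single lists, 81.3% of SIT peaks overlapped a left peak and 96.0% a right peak, while 67.3% of left and 45.7% of right peaks overlapped SIT. Left and right, made by the same isolation, overlapped each other at 90.2% of left and 52.6% of right peaks. Measured as bases in common over bases covered by either, SIT and left scored 0.569, SIT and right 0.531, and left and right 0.521. By this ratio the separate lists had no more in common with each other than each had with SIT. The ratio is limited by list size, and the right list covered 114 Mb, against 72.3 Mb in SIT and 73.9 Mb in left. As a share of left bases, 87.4% were also covered by right and 71.7% by SIT. Of right bases, 56.4% were covered by left and 56.6% by SIT.

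Merging all 3 lists gave 21453 places. Places with peaks of all 3 lists numbered 7093, or 33.1% of places, and covered 84.4 of 129 Mb with a median width of 7993 bp. Right alone was the most frequent combination, with 8492 places, but these covered 21.6 Mb at a median of 2278 bp. Left and right without SIT gave 2903 places with a median of 3803 bp, left alone 1239 places, SIT with right 1337, SIT with left 127 and SIT alone 262.

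**Figure D1:**
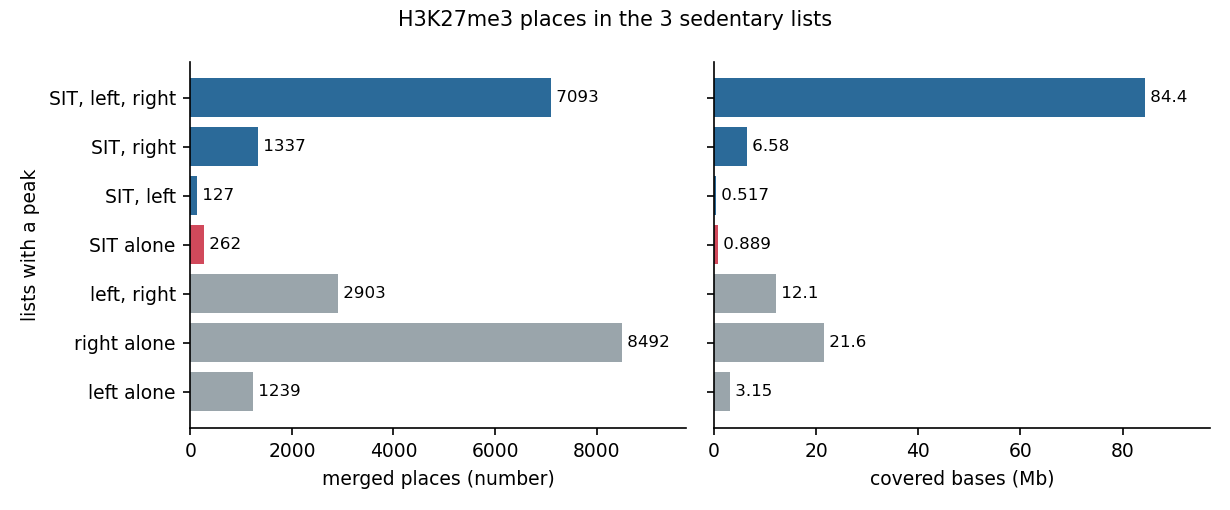
Number of merged H3K27me3 places (left panel) and the bases they cover in Mb (right panel) by which of the 3 sedentary lists held a peak there; blue bars are places of SIT and a separate list, the red bar SIT alone and grey bars separate lists alone. The 7093 places of all 3 lists cover 84.4 Mb, while the 8492 places of the right list alone cover 21.6 Mb.

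What SIT did not list was mostly narrow. Among separate regions under 2 kb, 11.9% (10.9 to 13.1) overlapped SIT, and the share was 14.2% between 2 and 3 kb, 41.8% between 3 and 5 kb and 79% between 5 and 10 kb. Between 10 and 20 kb it was 98.5%, with 25 of 1692 regions without SIT. All 628 regions of 20 to 50 kb and all 125 of at least 50 kb held a SIT peak. For SIT peaks the share on a separate region was 95.7% or more in every width class, and all 469 peaks of 20 to 50 kb and all 61 of at least 50 kb lay on a separate region. Within the left list the share that overlapped SIT went from 44.8% at 2 to 3 kb to 95.5% at 5 to 10 kb. Within the right list it went from 19.1% to 83.3%, so the rise with width was present in each hemisphere. Overlap meant at least 1 bp, so a wider interval is more likely to touch a SIT peak by its length alone. The part of this in the rise was not tested.

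**Figure D2:**
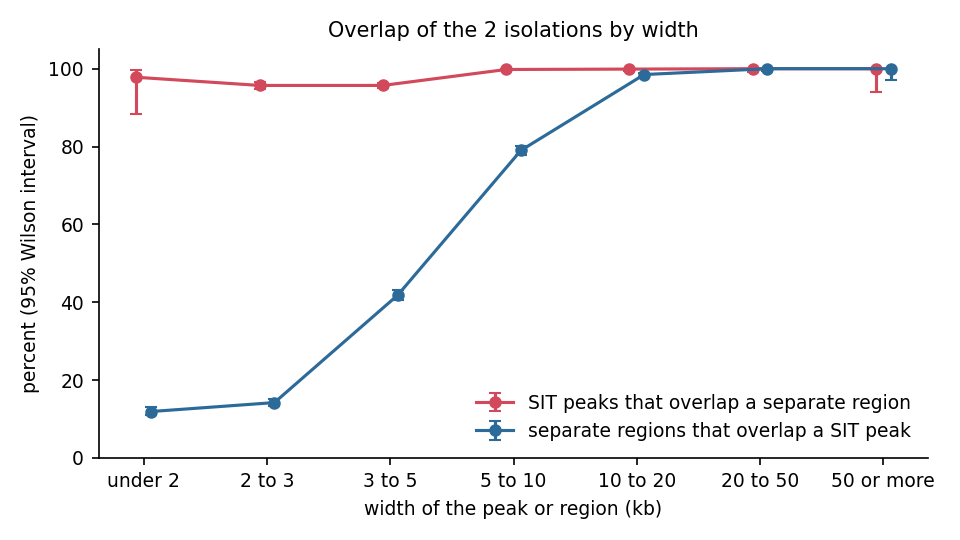
Percent of SIT peaks that overlap a separate region (red) and of separate regions that overlap a SIT peak (blue), by width in kb, with 95% Wilson intervals. Separate regions go from 11.9% under 2 kb to 98.5% at 10 to 20 kb, while SIT peaks stay at 95.7% or above.

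SIT peaks had a median width of 4375 bp and separate regions 3339 bp, a ratio of 1.31. Against the left list alone it was 1.31 and against the right list alone 1.40. Against the widest 10279 separate regions, a set that is wider by construction, it was 0.716. SIT peaks on a separate region had a median of 4457 bp and SIT-only peaks 3278 bp (lowest 1832, highest 10480). Separate regions with a SIT peak had a median of 6050 bp. The separate-only regions had medians of 3803 bp where both hemispheres had a peak, 2433 bp for left alone and 2278 bp for right alone. Of the SIT-only peaks 5 lay between 5 and 10 kb, and 1 was wider.

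Where a SIT peak and a separate region matched each other and nothing else (6850 pairs), the SIT peak was the narrower in 75.2%, with a median ratio of 0.826 (interquartile range 0.641 to 0.999). Merging widens the separate region by construction, so single lists were paired too. SIT peaks were wider than left peaks, at a median ratio of 1.07 over 6131 pairs, and narrower than right peaks, at 0.886 over 6743 pairs. Left over right was 0.840 over 8112 pairs. SIT thus lay between the hemispheres in width, and the centres of paired SIT and separate intervals were a median of 601 bp apart. Paired intervals carried the same annotation class in 94.2% and the same gene symbol in 99%.

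Broad domains were also cut differently. A separate region held 2 or more SIT peaks in 1192 of 9548 cases (12.5%), up to 6 peaks, and a SIT peak spanned 2 or more separate regions in 934 of 10017 cases (9.32%). SIT-only peaks mostly flanked a separate region: their median gap to the nearest was 3.56 kb, and 70.2% lay within 10 kb. Separate-only regions of both hemispheres lay a median of 19.3 kb from the nearest SIT peak, with 37.4% within 10 kb and 21.8% beyond 100 kb. Values were 18.5 kb for right alone and 33.4 kb for left alone.

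By annotation, places found by both isolations were richer in promoters than places found by 1. A promoter here means within 3 kb of a start site. Of SIT peaks on a separate region 25.8% (25 to 26.7) were promoters, against 10.3% (7.18 to 14.6) of SIT-only peaks, 27 of 262. Of separate regions with a SIT peak 27.4% (26.5 to 28.3) were promoters, against 16.4% (15.1 to 17.8) of separate-only regions of both hemispheres, 12.6% of right alone and 10.9% of left alone. Distal intergenic shares went the other way, at 41.1% and 40.4% in the classes with overlap, 51.9% (45.9 to 57.9) in SIT-only peaks and 49.7% to 55.0% in the separate-only classes. Introns took 24.4% (19.6 to 30.0) of SIT-only peaks and 18.3% of SIT peaks with overlap. Exons took 11.1% and 11.8%.

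**Figure D3:**
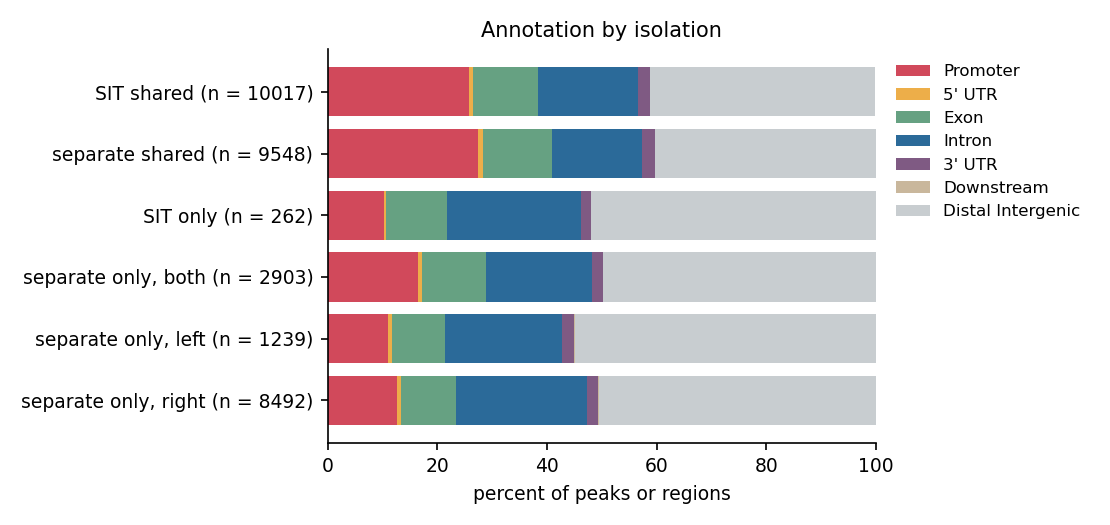
Annotation classes, in percent of peaks or regions, for SIT peaks and separate regions that overlap (shared) or not (only), the last split by hemisphere of origin. Promoters (red) take 25.8% and 27.4% of the shared classes and 10.3% to 16.4% of the others.

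Over whole lists, SIT peaks were promoters in 25.4% (24.6 to 26.3) and separate regions in 19.4% (18.8 to 19.9), a difference of 6.09 percentage points, and distal intergenic in 41.3% and 46.3%. The difference was 4.20 points against the left list alone and 5.96 against the right list alone. It turned to -1.22 points against separate regions of both hemispheres and to -1.33 points against the widest 10279 separate regions. Both of these sets are shorter than the full set and also wider, and the parts of number and width were not tested. Among intervals with overlap, promoter share went up with width from 2 kb upward in both isolations. The 44 SIT peaks with overlap under 2 kb were promoters in 25%, above the share at 2 to 3 kb. Separate regions with a SIT peak were promoters in 15.7% at 2 to 3 kb and 66.4% at 50 kb or more, and SIT peaks with overlap in 18% and 72.1%. Within width classes, the promoter share of separate-only regions was 12.6% against 13.2% of separate regions with SIT under 2 kb, 11.7% against 15.7% between 2 and 3 kb, 15.4% against 22.5% between 3 and 5 kb and 17.7% against 28.4% between 5 and 10 kb.

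Distance to the nearest start site followed the same order. The median was 24557 bp for SIT peaks with overlap, 43430 bp for SIT-only peaks, 23524 bp for separate regions with SIT and 34466 bp for separate-only regions. Within 3 kb lay 25.4% of SIT peaks and 19.6% of separate regions, a difference of 5.87 points that was -1.69 against regions of both hemispheres. A merged region took the smallest distance of its peaks, which places regions of several peaks nearer to start sites by construction. With left and right peaks as listed the difference was 5.25 points. Leaving out peaks within 3 kb, medians were 49326 bp for SIT peaks with overlap and 52852 bp for SIT-only peaks, against 50910 bp for separate regions with SIT and 46336 bp for separate-only regions. The separate-only median differed by origin, at 52935 bp for left alone, 45540 bp for right alone and 46140 bp for both hemispheres. Over 100 kb from a start site lay 27.1% of SIT-only peaks and 22.7% of SIT peaks with overlap.

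CpG density differed in the same direction outside promoters. The genome (chromosomes 1 to 19, X and Y of GRCm38.p6) held 8.26 CpG per kb. Medians were 10.7 per kb for SIT peaks with overlap and 10.6 for separate regions with SIT. They were 8.11 for SIT-only peaks, 9.02 for separate-only regions of both hemispheres, 9.08 for right alone and 7.73 for left alone. Among peaks not annotated as promoters the SIT medians were 9.73 with overlap and 7.95 without. The order held between 3 and 5 kb of width, with 10.3 per kb in SIT peaks with overlap and 8.11 in SIT-only peaks, and 10.4 in separate regions with SIT and 9.14 in those of both hemispheres without. Soft-masked repeats took a median of 19.3% of the bases of SIT peaks with overlap, 19.9% of SIT-only peaks, 19.9% of separate regions with SIT and 18.7% of right-alone regions, against 36.4% of the genome.

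Broad domains over developmental regulators were found by both isolations. The 8 widest SIT peaks on a separate region carried the symbols Hotair (a long non-coding RNA of the HoxC cluster), Gm15050 (HoxA), Hoxb3os (HoxB), Gm10578, Ebf1, Plcb4, Sfta3-ps and Pax3, and measured 117887 to 193722 bp. The Gm10578 peak of 154061 bp held the start of Ebf3 and the Sfta3-ps peak of 117951 bp that of Nkx2-1. Ebf1 and Ebf3 encode transcription factors of B cells and of neuronal differentiation, Nkx2-1 a regulator of ventral forebrain, and Pax3 a regulator of neural crest and dorsal neural tube. At Pax3 (chr1:78104874-78222760) the SIT list had 1 peak, the right list 1 peak of 122177 bp and the left list 4 peaks of 113718 bp in all. At Ebf1 (chr11:44710731-44857231) there was 1 SIT peak of 146501 bp, 1 right peak of 150386 bp and 3 left peaks summing to 148064 bp. These 8 places were chosen as single SIT peaks, so their 1 piece in SIT follows from the choice, and each also held peaks of both separate lists.

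The 4 Hox clusters, whose genes set position along the body axis and are silent in forebrain, showed how the pieces fell. Between the first and last start site of HoxC (chr15:102921103-103018934) each list had a single peak, of 193722 bp in SIT, 183681 bp in left and 193654 bp in right. HoxA (chr6:52158317-52260880) was 1 peak of 160066 bp in SIT, 2 left peaks of 45257 and 109498 bp and 1 right peak of 118782 bp. The gap between the left peaks held the start of Hoxa4, and the right peak ended before that of Hoxa13. HoxD (chr2:74668310-74762980) was the reverse, with 1 right peak of 133877 bp, 3 SIT peaks of 63979, 43210 and 26664 bp, and 3 left peaks of 36721, 6004 and 59502 bp. HoxB (chr11:96194316-96365752) had 2 SIT peaks, 6 left peaks and 4 right peaks, covering 97.4%, 90.8% and 98.4% of the span. All 39 Hox start sites lay inside a SIT peak, 38 inside a left peak and 38 inside a right peak.

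Gene lists were read from start sites, since a broad peak carries a single symbol: by symbol only 4 Hox genes were listed by both isolations. Of 21911 protein-coding start sites, 1518 lay inside H3K27me3 of both isolations (6.93%), 58 of SIT alone (0.265%) and 709 of separate isolation alone (3.24%). All 39 Hox genes and 78 of 83 other homeobox genes were inside both. So were 24 of 41 SOX, T-box and GATA genes, 20 of 44 forkhead genes, 11 of 19 WNT ligands and 9 of 28 BMP and GDF ligands. Each share was above 6.93%. SIT alone held 0 start sites in 12 of the 13 lists and 1 in the BMP and GDF list, which was Lefty1, an inhibitor of Nodal signalling, under a SIT peak of 2683 bp with no left or right peak over its start, although by symbol both isolations listed it.

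Separate isolation alone held 3 of 83 other homeobox start sites, 4 of 44 forkhead, 1 of 41 in the SOX, T-box and GATA list, 2 of 19 WNT and 4 of 28 BMP and GDF. Beside the 3.24% over all start sites, the homeobox count and the SOX, T-box and GATA count are near that share. Several of these lay in gaps of a domain that SIT also found. The start of Foxe1, a thyroid transcription factor, was under a left peak of 26287 bp and a right peak of 26501 bp, and the SIT list had 2 peaks in that region, the nearer 58 bp away. Tlx3, a regulator of spinal excitatory neurons, was under left and right peaks of 19949 and 20084 bp, with a SIT peak 174 bp away. Foxs1 had 6900 bp in left and 12903 bp in right and a SIT peak 1706 bp away. Others had no SIT peak nearby: Inhbb, an activin subunit, had 2260 bp in left and 4718 bp in right with the nearest SIT peak 164159 bp away, and Wnt2 had 2337 bp in right alone with the nearest SIT peak 440165 bp away.

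Across all protein-coding genes, 174 of the 709 start sites of separate isolation alone (24.5%) lay in a separate region that held a SIT peak elsewhere, at a median of 568 bp from the start site. For the other start sites the median distance to a SIT peak was 63110 bp. Of the 58 start sites of SIT alone, 46 (79.3%) lay in a SIT peak that overlapped a separate region, and the median distance to that region was 338 bp. A start site called for SIT alone was in most cases at the edge of a domain both isolations had found.

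Cell type markers were looked up for the labelled Emx1 lineage, which is mainly excitatory neurons. Over all protein-coding genes 19626 of 21911 start sites had no H3K27me3 in these lists, and a list near that share does not stand apart. Of the markers, 18 of 20 excitatory hippocampal neuron genes had no H3K27me3 over the start site in any of the 3 lists, among them Emx1 itself, Neurod1, Neurod2, Neurod6, Slc17a7 (the vesicular glutamate transporter) and Camk2a. Prox1, the dentate granule cell regulator, was inside both isolations, with 52432 bp in SIT, no left peak and 46822 bp in right. Of 18 interneuron genes 14 were inside both isolations, against 6.93% of all start sites. The lists share members: Dlx1, Dlx2, Dlx5, Dlx6, Lhx6, Lhx8 and Nkx2-1 are among the 14 and are counted with the other homeobox genes too, so the counts are not separate evidence. Among those in the interneuron list only, Gad2, a GABA-synthesis enzyme, lay under peaks of 21467 bp in SIT, 19045 bp in left and 20256 bp in right. Slc32a1, the vesicular GABA transporter, had 26745, 28404 and 28563 bp in the same order. Sst, the somatostatin gene, had 8619, 10472 and 11565 bp. Vip was inside a left peak of 5440 bp alone, and none of the 3 lists placed Gad1 or Pvalb inside a peak.

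Genes of neurons from other brain regions were inside both isolations at 14 of 23 start sites, beside 6.93% of all start sites, and 6 had no peak over the start in any of the 3 lists. Those 6 were Th and Dbh (catecholamine synthesis), Tph2 (serotonin synthesis), Hdc (histamine synthesis), Hcrt and Pmch (hypothalamic neuropeptides). Slc6a3, the dopamine transporter, had 20372 bp in SIT, 19804 bp in left and 21542 bp in right. Chat and Slc18a3, the cholinergic locus, shared peaks of 17357, 18456 and 24385 bp. Slc6a5, the glycine transporter, had 22154 bp in SIT, no left peak over its start and 41425 bp in right. Separate isolation alone held 3 of the 23 start sites, Ddc, Oxt and Avp, beside 3.24% of all start sites. The start of Oxt was under a right peak only and that of Avp under a left peak only. Both lay in 1 merged separate region of 6906 bp, which held a SIT peak 1758 bp from Oxt and 699 bp from Avp.

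Glial and vascular genes were mixed. Both isolations covered 4 of 11 oligodendrocyte genes, 2 of 10 astrocyte genes, 1 of 10 microglial genes and 5 of 9 endothelial genes, beside 6.93% of all start sites, which the microglial count is near. Olig2, the oligodendrocyte lineage regulator, had 43817 bp in SIT, 43410 bp in left and 43937 bp in right, and Pdgfra, the progenitor receptor, 19227, 20437 and 36870 bp. Sox17, an endothelial regulator, had 29325, 30358 and 30192 bp. Gfap, Aqp4, Mbp, Csf1r and P2ry12 had no peak over the start site in any of the 3 lists. Cx3cr1, a microglial receptor, had 2768 bp in SIT, none in left and 3961 bp in right, and Tmem119 had 5461 bp in left and 6828 bp in right with a SIT peak 1458 bp away. The absence of a peak over a marker does not show which cells were captured, and the share of other cells in each isolation was not tested.

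**Figure D4:**
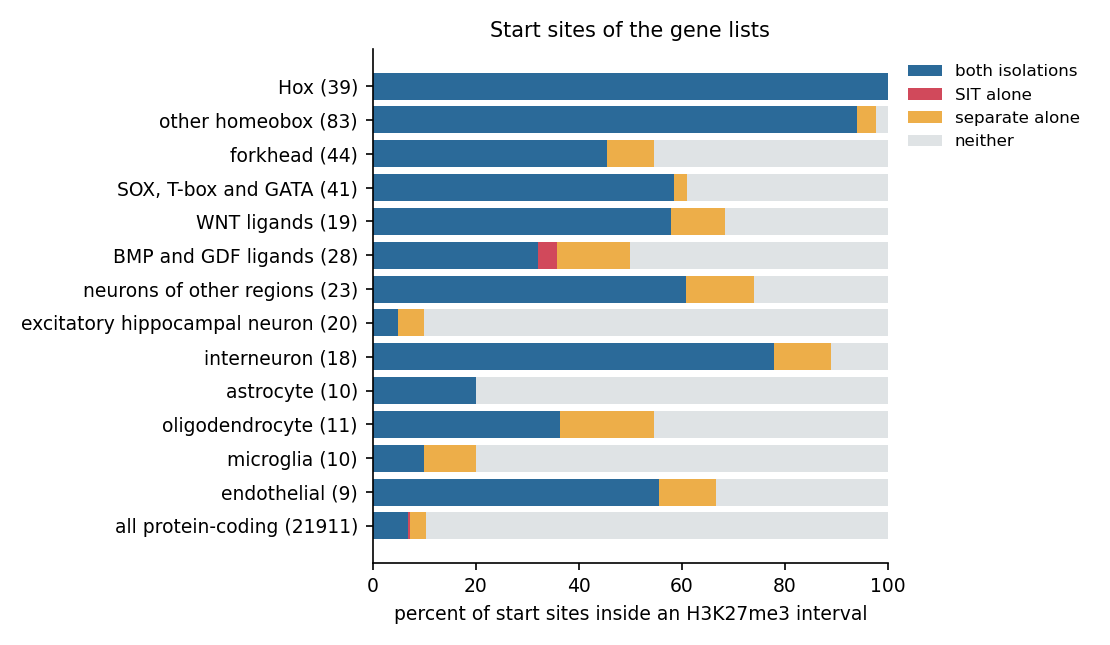
Percent of start sites of each gene list (matched genes in brackets) inside an H3K27me3 interval of both isolations (blue), SIT alone (red), separate isolation alone (yellow) or neither (grey), with all 21911 protein-coding genes at the bottom. Hox genes are all blue, 18 of 20 excitatory neuron genes are grey, and SIT alone appears for a single list gene.

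Widths were compared at start sites inside all 3 lists. Over 1310 such protein-coding start sites, under 1213 SIT peaks, medians were 7514 bp in SIT, 6758 bp in left and 8725 bp in right. SIT was wider than left at 771 and narrower than right at 936. For the 72 other homeobox start sites medians were 33321, 30123 and 38011 bp, for 23 SOX, T-box and GATA genes 35199, 28908 and 35471 bp, and for 19 forkhead genes 25182, 25561 and 28264 bp. WNT ligands were narrower, at 8301, 9273 and 9396 bp over 11 genes. In these 4 lists the SIT median was below the right median, while SIT and left changed places among them. Over 37 Hox start sites, under 7 SIT peaks, the medians were 158177 bp in SIT, 109498 bp in left and 133877 bp in right, and SIT was narrower than right at 18.

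By symbol, 6347 genes had a peak of either isolation. Both listed 3784 (59.6%), SIT alone 46 (0.725%) and separate isolation alone 2517 (39.7%). The counts of SIT alone and of separate isolation alone were 308 and 1146 against the left list alone, 84 and 2272 against the right list alone, and 407 and 717 against the widest 10279 separate regions. Of the 2517, 901 were listed in both hemispheres, 1371 in the right list and 245 in the left list. SIT listed 12.1% (10.6 to 13.9) of genes with a single separate peak, 58.8% of those with 2 and 99.2% (98.4 to 99.6) of the 888 genes with 10 or more. Of the 46 genes of SIT alone, 21 had a SIT peak that overlapped a separate region assigned to another symbol. Hoxd3 is an example: its SIT peak of 43210 bp lay within the HoxD cluster, which left and right peaks covered under other symbols. Most genes of SIT-only peaks, 213 of 238, were also listed by separate isolation through another peak.

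The 8 widest SIT-only peaks were assigned to Gm15319, Tac4 (a tachykinin), Susd5, Rbms3 (an RNA-binding protein), Adamts16 (a secreted protease), Gm10440, Disp1 (needed for Hedgehog release) and Mir100hg, a microRNA host gene. They measured 4947 to 10480 bp, and none was a promoter or held a protein-coding start site. The Gm15319 peak (chr8:20333042-20343521) of 10480 bp had no exercised SIT peak, and 1 exercised left and 1 exercised right peak. The other 7 each had an exercised SIT peak. Tac4 (chr11:95213565-95220817), at 7253 bp, was 40712 bp from the nearest start site and also had an exercised left peak. Genes with most SIT-only peaks were Zfp536, Runx1t1, D030068K23Rik and Sorcs3, with 3 each. Genes with 2, Rbms3 among them, were tied. Zfp536, which encodes a zinc finger protein, had 28 SIT peaks, 12 left and 44 right.

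The 8 widest separate-only regions with peaks of both hemispheres were assigned to Duxf3, Mir5120, Olfr1420, Cdh26, Mir135a-2, Gm3264, Il12b (an interleukin subunit) and Crnde, at 11953 to 16321 bp. Those at Duxf3 (chr10:58206517-58222837) and Crnde (chr8:92283380-92295332) had left and right peaks of similar total, 13276 and 16293 bp at Duxf3 and 8111 and 8949 bp at Crnde. At Cdh26 the left peak was 3120 bp and the right 13451 bp, and at Olfr1420 5162 and 14814 bp. All 8 held at least 1 exercised SIT peak. Adgrl2, a latrophilin receptor gene, had the most separate-only regions, 67, and also 53 SIT peaks. Ptprt had 37, Gm30214 35, Rbms3 32 and Gm28590 30. Rbms3 had 36 SIT, 53 left and 66 right peaks in all.

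Peaks of exercised mice, which chose no member, were then laid over the classes. SIT peaks on a separate region overlapped the exercised SIT list in 98.6% (98.3 to 98.8), and SIT-only peaks in 80.2% (74.9 to 84.5), 210 of 262. Separate-only regions of both hemispheres overlapped the exercised SIT list in 90.8% (89.7 to 91.8), 2637 of 2903, and the exercised left and right lists in 67.9% and 21.2%. Places that sedentary SIT had left out but both sedentary hemispheres held were thus mostly held by SIT in exercised mice. Regions of a single hemisphere came back less, at 63.7% (62.7 to 64.7) for right alone and 62.8% (60.1 to 65.4) for left alone. Right-alone regions overlapped the exercised right list in 6.29% and the exercised left list in 34.7%. The exercised lists differ in length, 25693 peaks in SIT, 18262 in left and 9899 in right, and shares of a longer list are higher in every class.

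**Figure D5:**
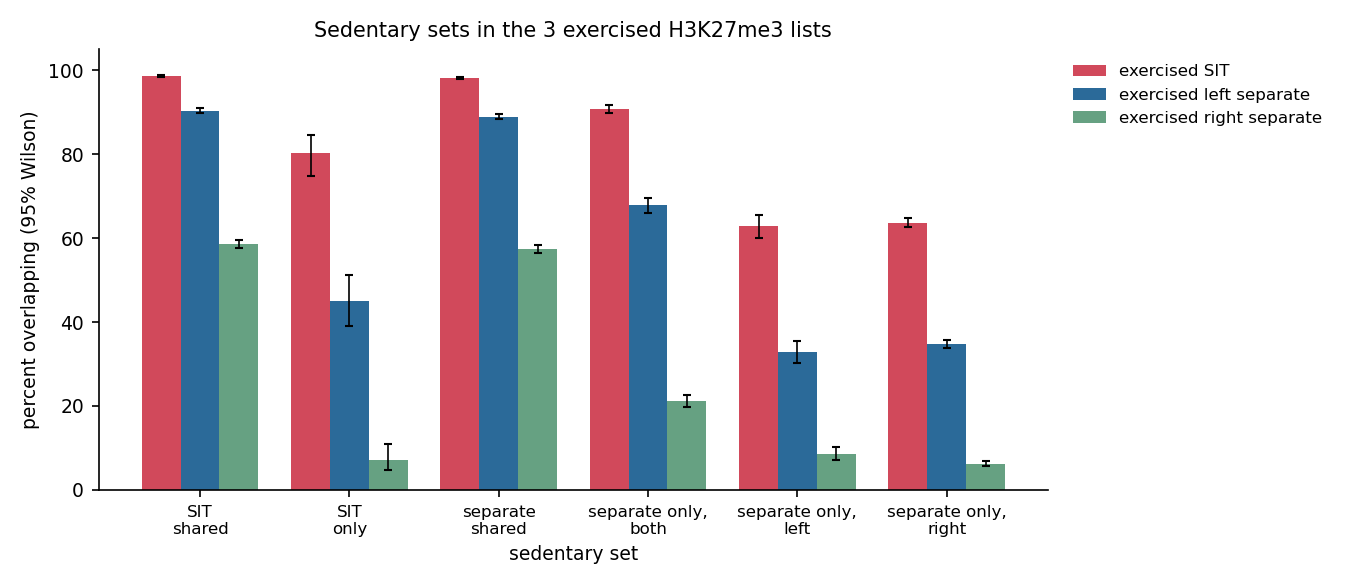
Percent of each sedentary class that overlaps the exercised SIT (red), left (blue) and right (green) H3K27me3 lists, with 95% Wilson intervals. Of separate-only regions of both hemispheres 90.8% overlap exercised SIT, and in all classes the order is SIT, left, right, the order of list length.

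Of the 262 SIT-only peaks, 103 overlapped exercised SIT and no exercised separate region, 107 both, 19 exercised separate regions alone and 33 neither. Of the 2903 separate-only regions of both hemispheres, 666 overlapped exercised SIT alone, 1971 both, 104 exercised separate regions alone and 162 neither. Both classes therefore overlapped exercised SIT alone more often than exercised separate regions alone, whichever sedentary isolation had found them.

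H4K8ac, an acetyl mark of active genes, was nearly absent from all classes. Sedentary SIT H4K8ac peaks overlapped 0.709% of SIT peaks with overlap, 3 of the 262 SIT-only peaks (interval 0.390% to 3.31%) and 0.827% of separate-only regions of both hemispheres. At start sites inside both isolations 0.264% (4 of 1518) lay in a SIT H4K8ac peak, against 8.39% of the 19626 start sites with no H3K27me3 peak in these lists. For separate-only start sites of both hemispheres it was 2 of 208, and for SIT-alone start sites 0 of 58, with a Wilson upper bound of 6.21%. In the left H4K8ac list it was 2 of those 58, the neighbouring start sites of Cfap43 and Itprip, against 14.5% of the start sites with no H3K27me3 peak.

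Set beside like comparisons in the series, sedentary H3K27me3 had the highest share of SIT peaks on a separate region among the 3 compared. In exercised H3K27me3 57.7% of SIT peaks overlapped a separate region and 87.5% of separate regions overlapped SIT, with 25693 SIT peaks to 18882 regions. In sedentary H4K8ac the shares were 63.8% and 40.5%, with 30358 peaks to 43772 regions. In bases, common over either, the values were 0.517 for sedentary H3K27me3, 0.553 for exercised H3K27me3 and 0.251 for sedentary H4K8ac. In all 3 comparisons the shorter side was the one more fully contained in the longer. These differences were not tested, since the lists hold no values per sample.

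The relation held along the genome. The ratio of SIT Mb to separate Mb was 0.479 (chromosome 15) to 0.630 (chromosome 8) on the autosomes, and the share of separate regions with a SIT peak ranged from 36.1% on chromosome 15 to 47.5% on chromosome 11. The X chromosome had 38 SIT peaks and 90 separate regions, fewer than any autosome, with 0.190 and 0.355 Mb.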

How the data were processed

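Per the study's methods, the authors checked CUT&RUN reads with FastQC 0.11.9, aligned them with Bowtie2 2.4.1, called peaks with SEACR (stringent, 0.01) and annotated them on mm10 with ChIPseeker 1.8.6, with promoters within 3 kb of a start site. The deposited lists give each peak's position, width and distance to a start site in bp, an annotation and a gene symbol. The sources used here do not say how a group's samples were put together. The study states a minimum read number for its libraries, but depth per sample is unknown from the lists, and IgG samples were not analysed here.

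Overlapping left and right peaks were merged, and overlap meant at least 1 bp. A merged region took the annotation of its widest peak and the smallest distance to a start site among its peaks. Start sites came from GENCODE M21 and sequence from RefSeq GRCm38.p6. Python 3.11.15, pandas 2.3.3, NumPy 2.4.6, SciPy 1.17.1 and matplotlib 3.10.9 were used, and the interval functions were tested on simulated intervals. Wilson 95% intervals treat peaks as independent. Named genes were the 8 widest of each class, the 5 with most peaks of each kind (ties by covered SIT bases for SIT-only peaks) and members of 13 gene lists; the second promoter shown of each class was added after values were seen. Members and lists were chosen with earlier results of these data known. Alternatives covered the overlap required, single hemispheres, lists of equal number, joining of near peaks and gene assignment. Some members of the gene lists are counted but not reported here by name.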

Additional observations from a re-analysis of the deposited data

Results flagged for a closer look

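Several differences between SIT and separate isolation ran in opposite directions in sedentary and exercised mice for H3K27me3, which is why they are listed here. The promoter share, SIT minus separate, was 6.09 points in sedentary and -1.36 in exercised mice, and the share within 3 kb of a start site 5.87 and -1.53. The median width, SIT over separate, was 1.31 and 0.970. The number of SIT peaks over separate regions was 0.463 and 1.36, and covered bases 0.584 and 1.40, so the longer list changed sides as well. With 1 list per group the differences between sedentary and exercised mice were not tested, and the part of list length in them was not tested.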

How the results depend on the processing

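No paired analysis was possible because there is a single list per group, which does not separate samples. For the same reason no replicate could be left out, and the left or right list was left out instead. Of 47 values under alternatives 16 stayed within their interval or within 1.5 times the count, 26 moved and 5 reversed. The share of covered bases has no interval of its own, and for this label it was given the width of the interval for the share of regions. With at least 50% covered, the shares with overlap were 94.1% of SIT peaks and 36.0% of separate regions. Against the left list alone they were 81.3% and 67.3%, with 71.7% of left bases covered, a promoter difference and a difference within 3 kb of 4.20 points each, and 308 genes of SIT alone and 1146 of separate isolation alone. Against the right list alone they were 96.0% and 45.7%, with 56.6% of bases, a width ratio of 1.40 and 84 genes of SIT alone. Against regions of both hemispheres they were 82.7% and 72.2%, the promoter difference reversed to -1.22 points and that within 3 kb to -1.69, and 901 genes were listed in both hemispheres without SIT. Against as many of the widest separate regions as SIT peaks they were 83.7% and 73.9%, with 66.1% of bases. There the promoter difference reversed to -1.33 points, that within 3 kb to -1.80 and the width ratio to 0.716, with 407 and 717 genes of SIT and of separate isolation alone. The width ratio was 1.36 for peaks as listed and 1.19 with intervals closer than 3000 bp joined. Promoter peaks alone gave 1332 genes of separate isolation alone, and leaving out reassigned genes gave 25 of SIT alone. The equal-number set is wider by construction, and the cause of the other changes was not tested.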
